A study of Arabidopsis thaliana with 18 samples.

Results

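The flavonoid and anthocyanin transcription regulators described here are 9 Arabidopsis thaliana genes, taken by their locus identifiers from a table of 33602 gene identifiers. They are the MYB activators PAP1 (AT1G56650) and PAP2 (AT1G66390), the bHLH proteins TT8 (AT4G09820), GL3 (AT5G41315) and EGL3 (AT1G63650), the WD40 protein TTG1 (AT5G24520), the MYB repressor MYBL2 (AT1G71030), and the flavonol MYBs MYB12 (AT2G47460) and MYB111 (AT5G49330). All 9 were among the 19897 genes that passed the filter on low counts. RNA was sequenced from whole rosettes of 6 genotypes in the Columbia-0 ecotype, with 3 libraries each and 5 rosettes pooled per library. Plants grew for 18 days at 23 °C with 16 h of light and 8 h of dark, and were harvested 6.5 h after dawn. The genotypes were ref5-1 med5a-1 med5b-1, ref5-1, ref2-1 med5a-1 med5b-1, ref2-1, med5a-1 med5b-1 and wild type, and med5 stands for med5a-1 med5b-1 below. The ref5-1 allele is a missense allele of CYP83B1, a cytochrome P450 of indole glucosinolate synthesis, and ref2-1 disrupts CYP83A1, its counterpart for aliphatic glucosinolates. MED5A and MED5B encode a pair of related subunits of Mediator, the complex that links transcription factors to RNA polymerase II. Each mutated gene is represented by 1 allele, carried in every cell, and a rosette mixes blades, petioles and the shoot tip of plants that developed with the lesion.

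Anthocyanin genes are switched on by a complex of a MYB protein, a bHLH protein and the WD40 protein TTG1. PAP1 and PAP2 supply the MYB of that complex in vegetative tissue, TT8, GL3 and EGL3 supply the bHLH, and the complex acts mainly on the late enzymes of the pathway, beginning with dihydroflavonol reductase. GL3, EGL3 and TTG1 also act with the MYB protein GL1 in the patterning of leaf hairs (trichomes). MYBL2 is a small MYB that binds the bHLH proteins and lowers the activity of the complex. MYB12 and MYB111 need no bHLH partner and drive the early enzymes that lead to flavonols.

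The study asked which transcripts the glucosinolate lesions alter and whether those changes need MED5. The libraries held between 19578169 and 33193849 reads counted to genes, with ref5-1 med5 replicate 1 the lowest and ref5-1 med5 replicate 2 the highest. CYP83A1 was at 120 to 154 CPM (counts scaled to library size) in ref2-1 med5 and at 117 to 129 CPM in ref2-1, and at 345 CPM or more in every other library. MED5B was at 6.31 to 8.47 CPM in the 9 med5 libraries and at 23.5 to 30.7 CPM in the 9 others, while MED5A overlapped between them. The ref5-1 allele changes the protein, so the CYP83B1 count is no check of it. Green leaf markers summed to 35492 to 46367 CPM per library, whereas 6 root markers summed to at most 0.963 CPM. Of 7 seed coat markers, 1 passed the filter on low counts. One wild type library, replicate 3, stood apart from replicates 1 and 2 in PAP1, in TT8 and in the summed CPM of the late enzymes (690, against 377 and 429 CPM) and early enzymes (1533, against 982 and 1005 CPM).

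The promoters of PAP1, PAP2 and TT8 are shown to set them beside the values that follow, in which PAP1 and TT8 were called together in the triple mutants and PAP2, a close relative of PAP1, was called in ref2-1. Each run is the 250 bases before the RefSeq gene start in the TAIR10.1 build, 5′ to 3′ on the strand of the gene. Capitals mark a CACGTG (G-box) or an ACCNACC (the core of an AC element, a MYB binding motif). The PAP1 promoter is chr1:21235293-21235542 on the minus strand, that of PAP2 is chr1:24763691-24763940 on the plus strand and that of TT8 is chr4:6181631-6181880 on the plus strand.
PAP1: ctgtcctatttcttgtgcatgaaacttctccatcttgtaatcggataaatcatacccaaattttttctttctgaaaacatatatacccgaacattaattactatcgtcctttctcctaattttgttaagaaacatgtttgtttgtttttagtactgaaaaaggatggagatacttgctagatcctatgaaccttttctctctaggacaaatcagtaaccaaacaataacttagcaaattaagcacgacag
PAP2: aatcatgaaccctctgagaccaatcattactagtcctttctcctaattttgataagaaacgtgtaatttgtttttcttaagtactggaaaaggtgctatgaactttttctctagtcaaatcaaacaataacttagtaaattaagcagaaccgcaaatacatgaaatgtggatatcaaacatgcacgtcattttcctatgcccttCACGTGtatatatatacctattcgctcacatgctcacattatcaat
TT8: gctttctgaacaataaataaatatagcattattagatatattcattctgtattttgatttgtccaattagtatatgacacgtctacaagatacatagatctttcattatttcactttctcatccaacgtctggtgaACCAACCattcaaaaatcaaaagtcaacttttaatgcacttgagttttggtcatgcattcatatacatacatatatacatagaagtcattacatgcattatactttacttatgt

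Motifs were searched on both strands, and every CACGTG is also a CANNTG (E-box, the bHLH binding motif). The PAP1 window held no CACGTG, no CANNTG and no ACCNACC. The PAP2 window held a CACGTG that begins at position -46 from the gene start and another CANNTG at -20. TT8 had 1 ACCNACC at -114 and 1 CANNTG at -78. Of 27443 promoter windows of the same length, 6.49% held CACGTG, 55.3% held CANNTG and 6.10% held ACCNACC. Among the other members, MYB12 held both a CACGTG at -118 and an ACCNACC at -198, while EGL3 and MYBL2 held none of the motifs. The longest run shared by the PAP1 and PAP2 windows was 19 bases, against 10 bases for PAP1 and TT8. These matches are descriptions of the letters and were not tied to any binding data.

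The members lie on chromosomes 1, 2, 4 and 5. PAP2 (chr1:24763941-24765541) is a neighbour of its relatives MYB113 (chr1:24753589-24754761) and MYB114 (chr1:24757298-24758953), and PAP1 (chr1:21233555-21235292) lies apart from that cluster. Exons of PAP2 and MYB114 share an identical run of 77 bases, those of PAP2 and PAP1 a run of 42 bases, and those of GL3 and EGL3 a run of 38 bases. Reads that lie wholly within such a run cannot be assigned to 1 gene, and reads with several alignments stayed out of the counts. The exons of PAP2 span 1002 bases, and how many of its reads were affected was not tested. GL3 (chr5:16529090-16533287) overlaps a long noncoding RNA on the opposite strand, AT5G06145, by 36 bases.

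Per kilobase of exon, MYBL2 was the most abundant member in wild type rosettes, with 29.1 CPM per kb on average over 3 libraries, followed by TTG1 with 17 and PAP1 with 11.5 CPM per kb. EGL3 followed with 5.17, MYB111 with 2.94 and TT8 with 2.81 CPM per kb. GL3 had 1.22, MYB12 0.857 and PAP2 0.320 CPM per kb. PAP1 spread most, with an SD of 6.81 CPM per kb in wild type, so that its place next to TTG1 and EGL3 was not separated by more than its spread, and MYB111 and TT8 were likewise too close to be ordered. In ref5-1, PAP1 averaged 21.8 CPM per kb and stood above TTG1 with 17.2 CPM per kb.

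**Figure D1:**
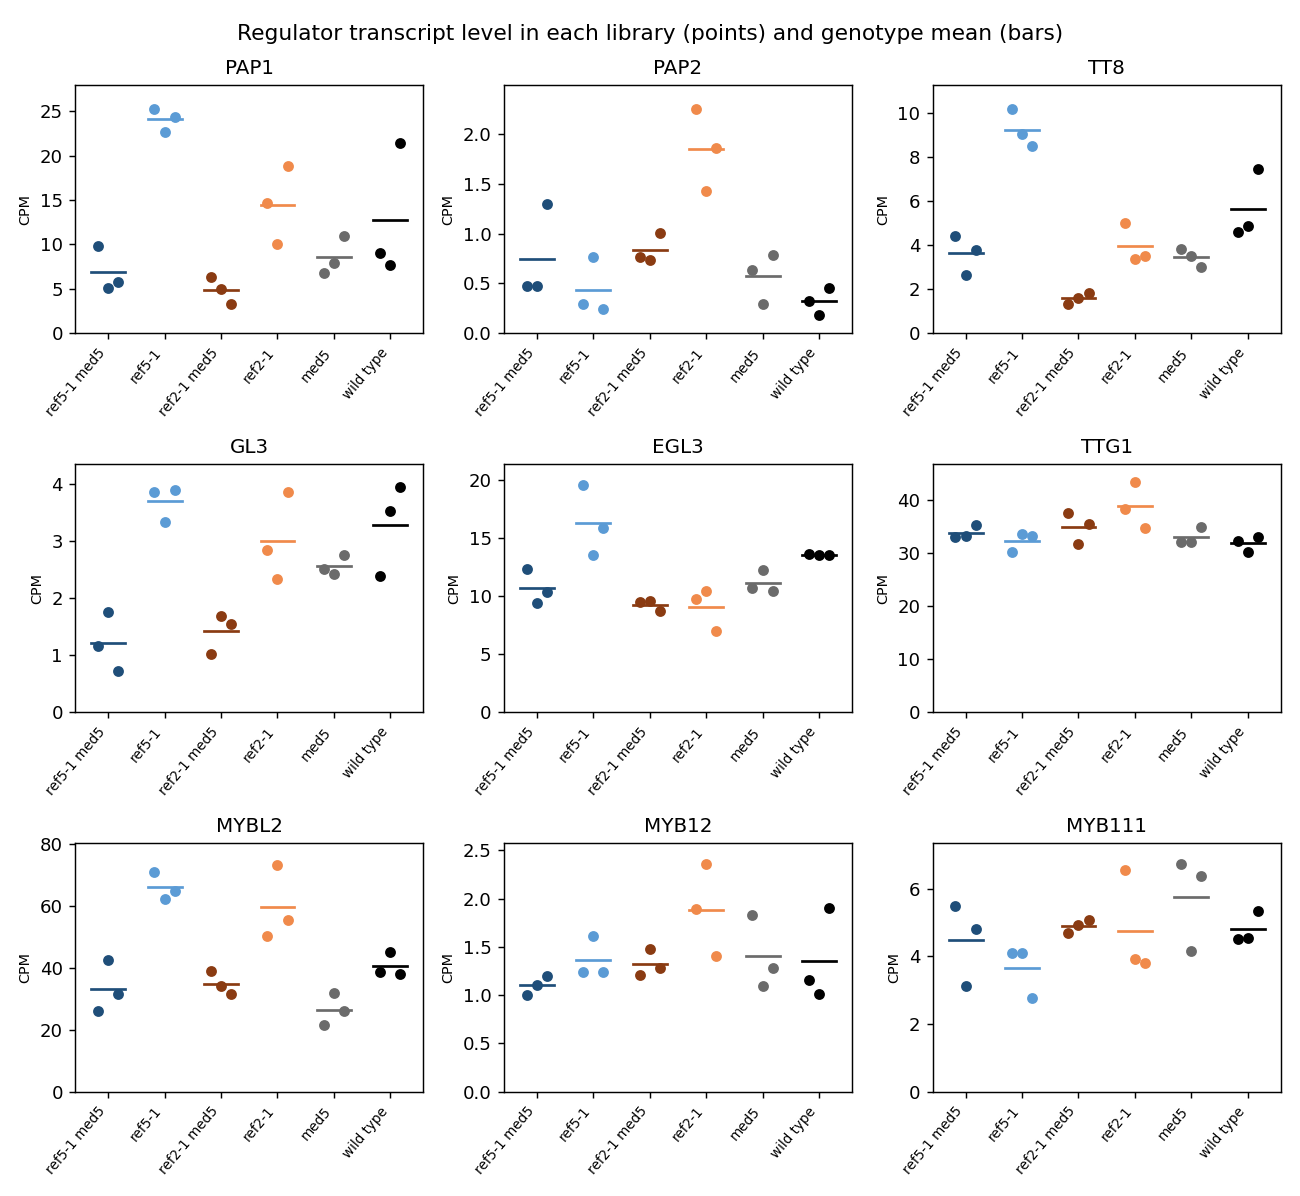
CPM of each of the 9 regulators (1 panel per gene, own linear axis from 0) in the 6 genotypes. Points are single libraries and bars are the mean of 3. PAP1, TT8, GL3 and MYBL2 are lower in each triple mutant than in the glucosinolate mutant beside it, TTG1 stays between 30.2 and 43.5 CPM in every library, and PAP2 reaches 1.43 CPM or more in ref2-1 alone.

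Loss of MED5 in the glucosinolate mutants lowered PAP1, TT8 and GL3 of the anthocyanin complex and the repressor MYBL2 in both backgrounds, while PAP2 and TTG1 were called in neither. In ref5-1 med5 against ref5-1, PAP1, TT8, GL3, EGL3 and MYBL2 fell, 5 of 9 members, where 4.71% of all tested genes were called lower. In ref2-1 med5 against ref2-1, PAP1, TT8, GL3 and MYBL2 fell, 4 of 9 members, where 4.26% of all tested genes were called lower. No member rose in either comparison by edgeR or by DESeq2, where 6.09% and 4.65% of all tested genes were called higher by edgeR, and none had an unadjusted p under 0.05 in that direction. A gene was called at a Benjamini-Hochberg adjusted p under 0.05 in edgeR's quasi-likelihood test, and log2 fold changes are given ± SE.

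PAP1, the main MYB activator of anthocyanin genes in seedlings and leaves, had 9.82, 5.06 and 5.82 CPM in ref5-1 med5, against 25.3, 22.7 and 24.4 CPM in ref5-1. The groups did not overlap, and the highest triple mutant library was below every ref5-1 library. The log2 fold change was -1.83 ± 0.391, with an adjusted p of 0.0112 and a 95% interval of -2.67 to -0.99. Without ref5-1 med5 replicate 2 it was -1.64 and the adjusted p was 0.0592. In the other background PAP1 had 6.32, 5.02 and 3.30 CPM in ref2-1 med5, against 14.7, 10 and 18.8 CPM in ref2-1. Again the groups did not overlap, although the ref2-1 libraries spread more widely than those of ref5-1. The log2 fold change was -1.57 ± 0.406 (adjusted p = 0.0306). This call was lost without any one of 5 libraries, all but ref2-1 replicate 2, with adjusted p-values of 0.0537 to 0.101 and log2 fold changes of -1.79 to -1.34.

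TT8 encodes the bHLH protein that is best known for anthocyanin and seed coat pigment synthesis. It had 4.43, 2.64 and 3.80 CPM in ref5-1 med5, against 10.2, 9.04 and 8.51 CPM in ref5-1. In ref2-1 med5 it had 1.34, 1.60 and 1.81 CPM, against 5.01, 3.39 and 3.49 CPM in ref2-1. Neither pair of groups overlapped, and ref2-1 med5 held the lowest TT8 libraries of the series. The log2 fold changes were -1.37 ± 0.209 (adjusted p = 0.000567) and -1.32 ± 0.235 (adjusted p = 0.00206). Both calls held with each of the libraries compared left out.

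GL3 acts in both trichome patterning and anthocyanin synthesis. Its CPM was 1.16, 1.76 and 0.722 in ref5-1 med5, against 3.85, 3.34 and 3.89 in ref5-1. In ref2-1 med5 it was 1.03, 1.69 and 1.54, against 2.84, 2.33 and 3.85 in ref2-1. Both triple mutants were below their glucosinolate mutant in every library. The log2 fold change was -1.56 ± 0.272 in ref5-1 med5 against ref5-1 (adjusted p = 0.00173) and -1.07 ± 0.271 in ref2-1 med5 against ref2-1 (adjusted p = 0.0197). The second call was lost without ref2-1 replicate 3, with an adjusted p of 0.0928, and without ref2-1 med5 replicate 1, with an adjusted p of 0.0981.

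EGL3, the close relative of GL3, was called in the ref5-1 background alone. It had 12.3, 9.42 and 10.3 CPM in ref5-1 med5, against 19.5, 13.5 and 15.8 CPM in ref5-1, with no overlap. In ref2-1 med5 it had 9.50, 9.58 and 8.68 CPM, against 9.74, 10.4 and 7.02 CPM in ref2-1, and these groups overlapped. EGL3 fell by 0.61 ± 0.142 on the log2 scale in ref5-1 med5 against ref5-1 (adjusted p = 0.0110), and its value in ref2-1 med5 against ref2-1 was 0.02 ± 0.146, with a 95% interval of -0.28 to 0.33. The call in the ref5-1 background was lost without ref5-1 replicate 1 (adjusted p = 0.0546), without ref5-1 med5 replicate 2 (adjusted p = 0.0664) and in a fit to these 2 genotypes alone (adjusted p = 0.0522). The difference between the backgrounds was not tested directly. The med5 libraries were at 10.4 to 12.2 CPM and the wild type libraries at 13.5 to 13.6 CPM.

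MYBL2, the repressor, fell in both comparisons, as PAP1, TT8 and GL3 did. Its libraries held 26.0, 42.4 and 31.4 CPM in ref5-1 med5, against 71.0, 62.1 and 64.9 CPM in ref5-1. In ref2-1 med5 they held 39.0, 34.0 and 31.4 CPM, against 50.3, 73.1 and 55.4 CPM in ref2-1. No triple mutant library reached the lowest library of its glucosinolate mutant. MYBL2 fell by 0.98 ± 0.176 on the log2 scale in ref5-1 med5 against ref5-1 (adjusted p = 0.00296) and by 0.78 ± 0.175 in ref2-1 med5 against ref2-1 (adjusted p = 0.0122). Without ref2-1 med5 replicate 2 the adjusted p in the ref2-1 background was 0.0551.

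**Figure D2:**
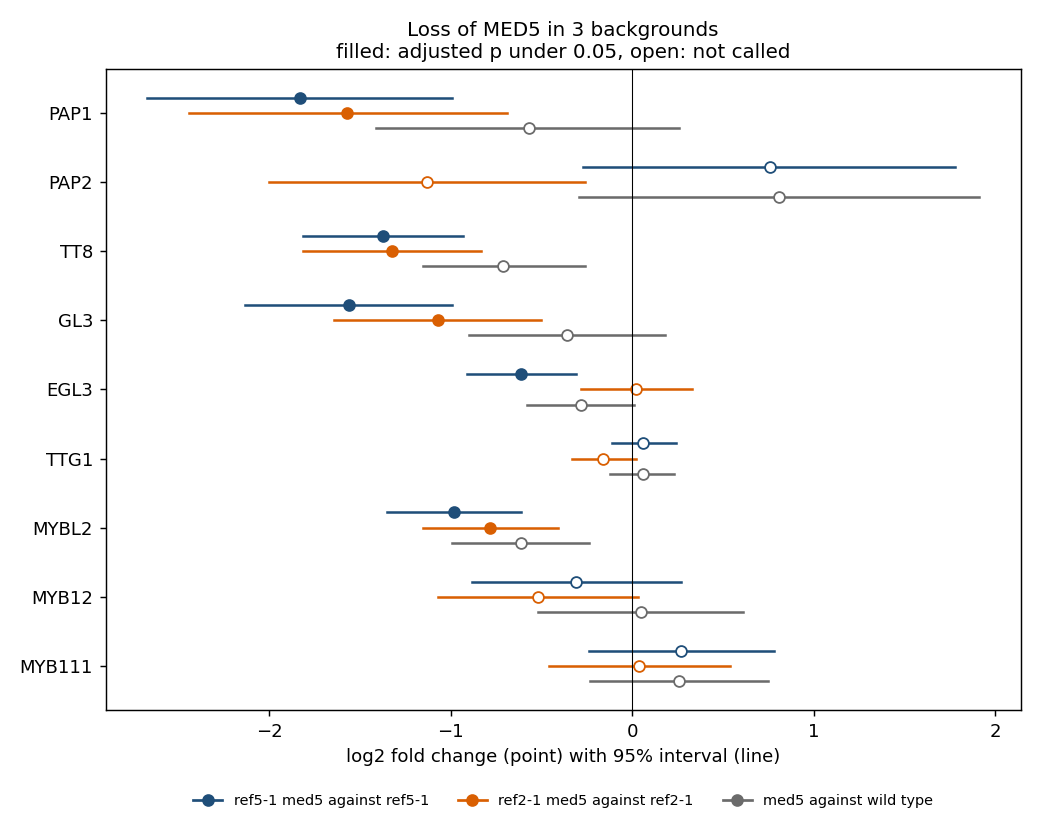
Log2 fold changes of the 9 regulators on loss of MED5, for ref5-1 med5 against ref5-1, ref2-1 med5 against ref2-1 and med5 against wild type, with 95% intervals. Filled points are called at an adjusted p under 0.05. PAP1, TT8, GL3 and MYBL2 are below 0 and called in both glucosinolate mutant backgrounds, EGL3 in the ref5-1 background alone, and no point is filled for med5 against wild type.

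The remaining members were not called in either comparison. PAP2, which is close to PAP1 in sequence and induces the same pigments when overexpressed, had 0.762, 0.740 and 1.01 CPM in ref2-1 med5, against 2.25, 1.43 and 1.86 CPM in ref2-1. Those groups did not overlap, and the log2 fold change was -1.13 ± 0.415 with an adjusted p of 0.0977, or 0.0334 in a fit to these 2 genotypes alone. In ref5-1 med5 it had 0.475, 0.471 and 1.30 CPM, against 0.290, 0.764 and 0.241 CPM in ref5-1, and the log2 fold change was 0.76 with a 95% interval of -0.27 to 1.78. TTG1 gave 0.06 in ref5-1 med5 against ref5-1, with a 95% interval of -0.11 to 0.24, and -0.16 in ref2-1 med5 against ref2-1, with an interval of -0.33 to 0.02. These intervals are the narrowest among the members. MYB12 gave -0.31 (95% interval -0.88 to 0.27) and -0.52 (-1.07 to 0.03) in the ref5-1 and ref2-1 backgrounds, and MYB111 gave 0.27 (-0.24 to 0.78) and 0.04 (-0.46 to 0.54). In bulk rosettes, fewer cells of a type and less RNA per cell cannot be told apart.

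In plants with normal CYP83A1 and CYP83B1, loss of MED5 changed no member past the threshold. In med5 against wild type, edgeR called 0 of 9 members, where 0.779% of all tested genes were called in either direction. Of the members, 2 had an unadjusted p under 0.05, both lower, and DESeq2 called 1 of them, MYBL2 (adjusted p = 0.0238). MYBL2 had 21.6, 31.8 and 26.0 CPM in med5, against 38.6, 45.0 and 38.1 CPM in wild type. The other was TT8, with 3.84, 3.52 and 2.99 CPM in med5, against 4.58, 4.87 and 7.47 CPM in wild type. Neither gene overlapped between the genotypes. Their log2 fold changes were -0.61 ± 0.178 for MYBL2 (adjusted p = 0.131) and -0.71 ± 0.212 for TT8 (adjusted p = 0.136) in edgeR's quasi-likelihood test. PAP1 gave -0.57 ± 0.388 with a 95% interval of -1.41 to 0.26, and had 6.82, 7.88 and 11 CPM in med5, against 9.09, 7.65 and 21.4 CPM in wild type. Without wild type replicate 3 the log2 fold change was 0.03 for PAP1 and -0.46 for TT8. GL3 gave -0.36 (95% interval -0.90 to 0.18) and EGL3 gave -0.28 (-0.58 to 0.01).

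Whether loss of MED5 acts differently in a glucosinolate mutant than in wild type was tested by the interactions, and no member was called in either. Of all tested genes, 0.0905% were called in the interaction of ref5-1 with med5 and 0.749% in that of ref2-1 with med5, and DESeq2 called 0 of 9 members in both. At an unadjusted p under 0.05 there were 3 members in the first, all negative, and 1 in the second, also negative. GL3 had the smallest p in the first, with an interaction of -1.20 ± 0.373 and an adjusted p of 0.296. PAP1 gave -1.26 ± 0.549 (adjusted p = 0.536) and TT8 gave -0.66 ± 0.297 (adjusted p = 0.535). In the second it was PAP2, with -1.94 ± 0.669 and an adjusted p of 0.170.

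In plants with functional MED5, MYBL2 was the member called in both glucosinolate mutants against wild type. In ref5-1 against wild type, TT8 and MYBL2 rose, 2 of 9 members, where 5.12% of all tested genes were called higher. No member was called lower there by edgeR or DESeq2, where edgeR called 3.60% of all tested genes lower, and none had an unadjusted p under 0.05 in that direction. TT8 had 10.2, 9.04 and 8.51 CPM in ref5-1, against 4.58, 4.87 and 7.47 CPM in wild type. MYBL2 had 71.0, 62.1 and 64.9 CPM in ref5-1, against 38.6, 45.0 and 38.1 CPM in wild type. All ref5-1 libraries were above all wild type libraries for both genes. The log2 fold changes were 0.71 ± 0.200 for TT8 (adjusted p = 0.0330) and 0.70 ± 0.174 for MYBL2 (adjusted p = 0.0196).

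Both calls depended on single libraries. TT8 was no longer called without wild type replicate 1 (adjusted p = 0.156), wild type replicate 2 (0.161), ref5-1 replicate 1 (0.107) or ref5-1 replicate 2 (0.0683), nor in a fit to these 2 genotypes alone (0.0596), and its log2 fold change was 0.96 without wild type replicate 3. MYBL2 was no longer called without wild type replicate 1 (adjusted p = 0.0790), wild type replicate 3 (0.0565) or ref5-1 replicate 1 (0.0800). PAP1 had 25.3, 22.7 and 24.4 CPM in ref5-1, against 9.09, 7.65 and 21.4 CPM in wild type. Every ref5-1 library was above every wild type library, but wild type replicate 3 lay close to ref5-1. The log2 fold change of PAP1 was 0.93 ± 0.369 with an adjusted p of 0.152, and without wild type replicate 3 it was 1.53 with an adjusted p of 0.00960. The other members gave log2 fold changes of -0.39 to 0.43 and were not called, and MYB111, at 4.10, 4.10 and 2.77 CPM in ref5-1, was below the 4.50, 4.54 and 5.35 CPM of wild type in every library (adjusted p = 0.356).

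In ref2-1 against wild type, PAP2, TTG1 and MYBL2 rose, 3 of 9 members, where 13.5% of all tested genes were called higher, and EGL3 fell, 1 of 9, where 11.2% were called lower. PAP2 showed the largest change of any member in any comparison. It had 2.25, 1.43 and 1.86 CPM in ref2-1, against 0.319, 0.187 and 0.455 CPM in wild type, with no overlap. The fitted fold was 5.67, a log2 fold change of 2.50 ± 0.464 with an adjusted p of 0.000764 and a 95% interval of 1.53 to 3.48. It stayed a low transcript even so, and its relatives at the same locus had 0.281 ± 0.154 CPM (MYB114) and 0.700 ± 0.806 CPM (MYB113) in ref2-1, against 0.153 ± 0.0645 and 0.494 ± 0.657 CPM in wild type (SD, n = 3), neither of them called.

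EGL3 had 9.74, 10.4 and 7.02 CPM in ref2-1, against 13.6, 13.5 and 13.5 CPM in wild type. The wild type libraries were nearly identical and all above ref2-1, and EGL3 fell by 0.57 ± 0.143 on the log2 scale (adjusted p = 0.00666). TTG1 had 38.3, 43.5 and 34.8 CPM in ref2-1, against 32.3, 30.3 and 33 CPM in wild type. All ref2-1 libraries were higher, by a log2 fold change of 0.29 ± 0.0843 (adjusted p = 0.0173). MYBL2 had 50.3, 73.1 and 55.4 CPM in ref2-1, against 38.6, 45.0 and 38.1 CPM in wild type. Its log2 fold change was 0.56 ± 0.174 (adjusted p = 0.0279). The calls of TTG1 and MYBL2 were lost without wild type replicate 1 (adjusted p = 0.0527 and 0.0982) and without ref2-1 replicate 2 (0.131 and 0.150). TTG1 was also lost without wild type replicate 2 (0.0808) and MYBL2 without wild type replicate 3 (0.0893). TT8, with 5.01, 3.39 and 3.49 CPM in ref2-1, gave -0.51 ± 0.208 (adjusted p = 0.0815) and -0.27 without wild type replicate 3. When ref2-1 replicate 1 was left out it was called at -0.72 (adjusted p = 0.0302). MYB12, the flavonol activator, had 1.89, 2.36 and 1.4 CPM in ref2-1, against 1.16, 1.01 and 1.90 CPM in wild type, gave 0.49 (adjusted p = 0.185), and was called when wild type replicate 3 was left out (0.79, adjusted p = 0.0416).

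The direct comparison of ref5-1 with ref2-1 tested these differences without wild type. TT8 and EGL3 were higher in ref5-1, 2 of 9 members, where 10.4% of all tested genes were called higher. PAP2 and TTG1 were lower in ref5-1, 2 of 9, where 11% were called lower. TT8 averaged 9.24 ± 0.856 CPM in ref5-1 and 3.96 ± 0.904 CPM in ref2-1 (SD, n = 3), a log2 fold change of 1.22 ± 0.205 (adjusted p = 0.000410). EGL3 averaged 16.3 ± 3.07 CPM in ref5-1 and 9.06 ± 1.80 CPM in ref2-1, a log2 fold change of 0.84 ± 0.142 (adjusted p = 0.000443). PAP2 averaged 0.431 ± 0.289 CPM in ref5-1 and 1.85 ± 0.408 CPM in ref2-1, a log2 fold change of -2.08 ± 0.448 (adjusted p = 0.00274). None of these 3 genes overlapped between the mutants. TTG1 gave -0.26 ± 0.0844 (adjusted p = 0.0317), and this call was lost without ref5-1 replicate 1 (0.127), ref2-1 replicate 1 (0.0587) or ref2-1 replicate 2 (0.191) and in a fit to these 2 genotypes alone (0.161). PAP1 was above ref2-1 in every ref5-1 library, with a log2 fold change of 0.74 ± 0.367 and an adjusted p of 0.177, or 0.0282 in a fit to these 2 genotypes alone. MYBL2, which rose in each mutant against the shared wild type, gave 0.15 between the mutants, with a 95% interval of -0.22 to 0.51.

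**Figure D3:**
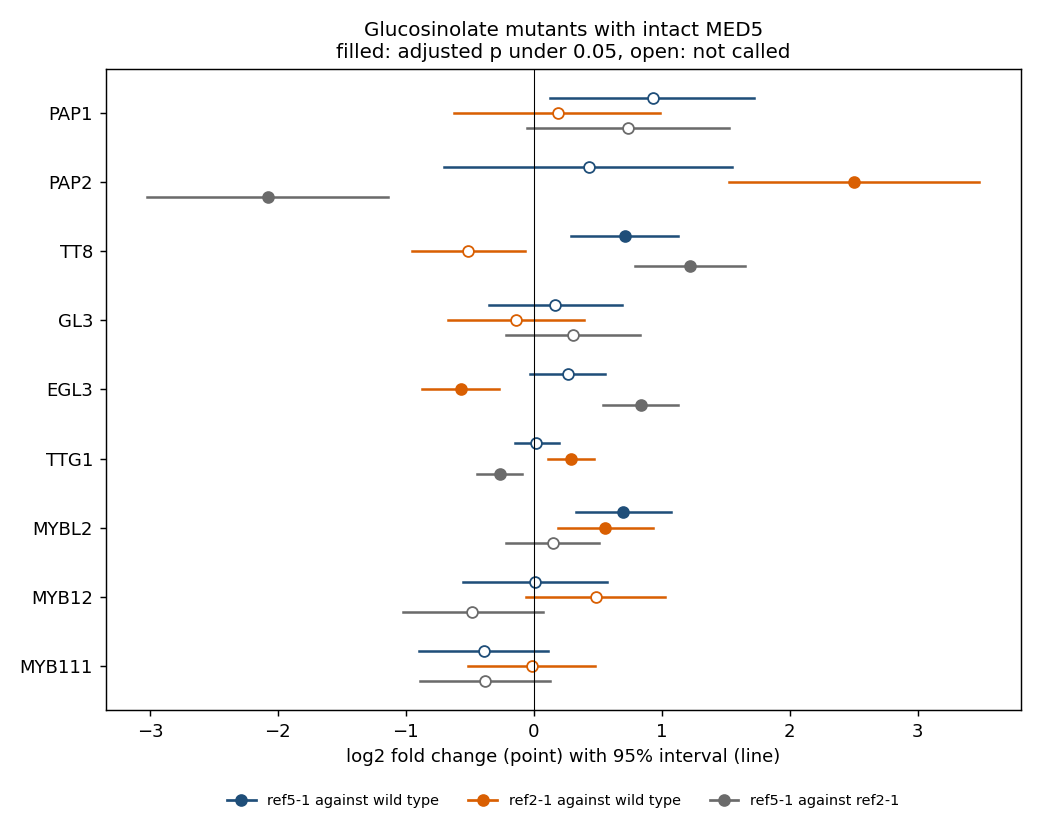
Log2 fold changes of the 9 regulators in the glucosinolate mutants, for ref5-1 against wild type, ref2-1 against wild type and ref5-1 against ref2-1, with 95% intervals. Filled points are called at an adjusted p under 0.05. TT8 and EGL3 lie above 0 and PAP2 and TTG1 below 0 in ref5-1 against ref2-1, and the first 2 comparisons share the wild type libraries.

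The glucosinolate alleles were also compared with MED5 absent in both genotypes, and the calls there were GL3 and TT8. In ref5-1 med5 against med5, GL3 fell, 1 of 9 members, where 4.20% of all tested genes were called lower. It had 1.16, 1.76 and 0.722 CPM in ref5-1 med5, against 2.51, 2.43 and 2.75 CPM in med5, a log2 fold change of -1.03 ± 0.279 (adjusted p = 0.0235). The call was lost without med5 replicate 1 (adjusted p = 0.0635), med5 replicate 3 (0.0624), ref5-1 med5 replicate 1 (0.0586) or ref5-1 med5 replicate 3 (0.104), and in a fit to these 2 genotypes alone (0.0563). In ref2-1 med5 against med5, TT8 and GL3 fell, 2 of 9 members, where 7.52% of all tested genes were called lower. TT8 had 1.34, 1.60 and 1.81 CPM in ref2-1 med5, against 3.84, 3.52 and 2.99 CPM in med5, and no library overlapped. It fell by 1.12 ± 0.239 on the log2 scale (adjusted p = 0.00500) and was called with every library left out in turn. GL3 gave -0.85 ± 0.276 (adjusted p = 0.0440), and that call was lost without any one of the 6 libraries, with adjusted p-values of 0.0606 to 0.174. No member was called higher by edgeR or DESeq2, where edgeR called 6.24% of all tested genes higher in ref5-1 med5 against med5 and 8.75% in ref2-1 med5 against med5, and MYBL2 in ref2-1 med5 against med5 was the single member with an unadjusted p under 0.05 in that direction (0.39, adjusted p = 0.147). MYBL2, higher than wild type in ref5-1, gave 0.34 in ref5-1 med5 against med5 with a 95% interval of -0.04 to 0.72, and TT8 gave 0.05 there with an interval of -0.42 to 0.51.

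The late anthocyanin enzymes, the textbook targets of the complex, fell in the comparisons in which PAP1, TT8 and GL3 all fell. In ref5-1 med5 against ref5-1, 9 of 10 fell, where 4.71% of all tested genes were called lower. None rose by edgeR or DESeq2, where edgeR called 6.09% of all tested genes higher. None had an unadjusted p under 0.05 in that direction. The median log2 fold change was -1.82 over the list, where the median over all tested genes was within 0.02 of 0. In ref2-1 med5 against ref2-1, 9 of 10 fell, with a median of -1.92, where 4.26% of all tested genes were called lower. Likewise none rose by either tool, where edgeR called 4.65% of all tested genes higher. None had an unadjusted p under 0.05 in that direction. DFR, dihydroflavonol reductase, averaged 49.7 ± 10.4 CPM in ref5-1 med5 and 139 ± 15.8 CPM in ref5-1 (SD, n = 3). TT19, a glutathione transferase needed to store anthocyanin, averaged 12.7 ± 2.55 CPM in ref2-1 med5 and 44.6 ± 16.2 CPM in ref2-1. Without ref5-1 med5 replicate 2, 5 of the 10 were called lower in the ref5-1 background. In that comparison the enzymes called with the smallest adjusted p were 5MAT (-1.97 ± 0.308), 3AT1 (-2.08 ± 0.332), TT19 (-2.0 ± 0.327) and UGT79B1 (-2.32 ± 0.438), all of them enzymes or carriers that decorate or move anthocyanins. The summed CPM of the 10 enzymes was 280 to 389 in ref5-1 med5, against 735 to 814 in ref5-1, and 212 to 222 in ref2-1 med5, against 346 to 640 in ref2-1.

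The other comparisons gave smaller counts of called late enzymes. In ref5-1 against wild type, 1 of 10 rose, BGLU10, a glucosidase family protein that glucosylates anthocyanins, and the median of the list was 0.83. Of all tested genes, 5.12% were called higher there. Without wild type replicate 3, 8 of the 10 were called higher. In ref2-1 against wild type, where PAP2 rose, 1 of 10 rose (BGLU10) and 1 fell (SCPL10), with a median of -0.06. Both shares were near those over all tested genes, of which 13.5% were called higher and 11.2% lower. The lower call was lost without any one wild type library or without ref2-1 replicate 2. In ref5-1 med5 against med5, where GL3 fell without PAP1 or TT8, 0 of 10 fell and 1 rose, with a median of -0.07. Of all tested genes, 4.20% were called lower there and 6.24% higher. In ref2-1 med5 against med5, 4 of 10 fell and 1 rose, where 7.52% of all tested genes were called lower and 8.75% higher. The median of the list was -1.13, and at most 1 was called lower with any library left out. DESeq2 called 8 of 10 lower there, and 9 had an unadjusted p under 0.05 in edgeR in that direction. In med5 against wild type edgeR called 0 of 10, where 0.779% of all tested genes were called in either direction. Still, 9 of the list had an unadjusted p under 0.05 in the lower direction and DESeq2 called 2 lower. Their summed CPM was 345, 290 and 325 in med5, against 377, 429 and 690 in wild type, where replicate 3 lay apart. In ref5-1 against ref2-1, 4 of 10 were higher in ref5-1, where 10.4% of all tested genes were called higher. That count of 4 ran from 0 without ref5-1 replicate 2 or ref2-1 replicate 2 to 9 without ref2-1 replicate 1. It was 1 without ref5-1 replicate 1 or ref2-1 replicate 3.

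Across the 18 libraries, the summed CPM of the late enzymes followed TT8 with a Pearson r of 0.96 (Spearman rho 0.92) and PAP1 with r = 0.93 (rho 0.89). Without the 2 libraries farthest from the median of the regulator, r was 0.93 for TT8 and 0.89 for PAP1. GL3 gave r = 0.76, EGL3 0.70 and MYBL2 0.63, and EGL3 was at 0.46 without its 2 farthest libraries. PAP2 gave -0.05, TTG1 -0.20, MYB12 0.22 and MYB111 -0.16. These are descriptions over libraries that share genotypes in groups of 3 and a common scaling. PAP1 and TT8 themselves had r = 0.83 (rho 0.76), whereas PAP1 and PAP2 had r = -0.10 (rho -0.13).

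**Figure D4:**
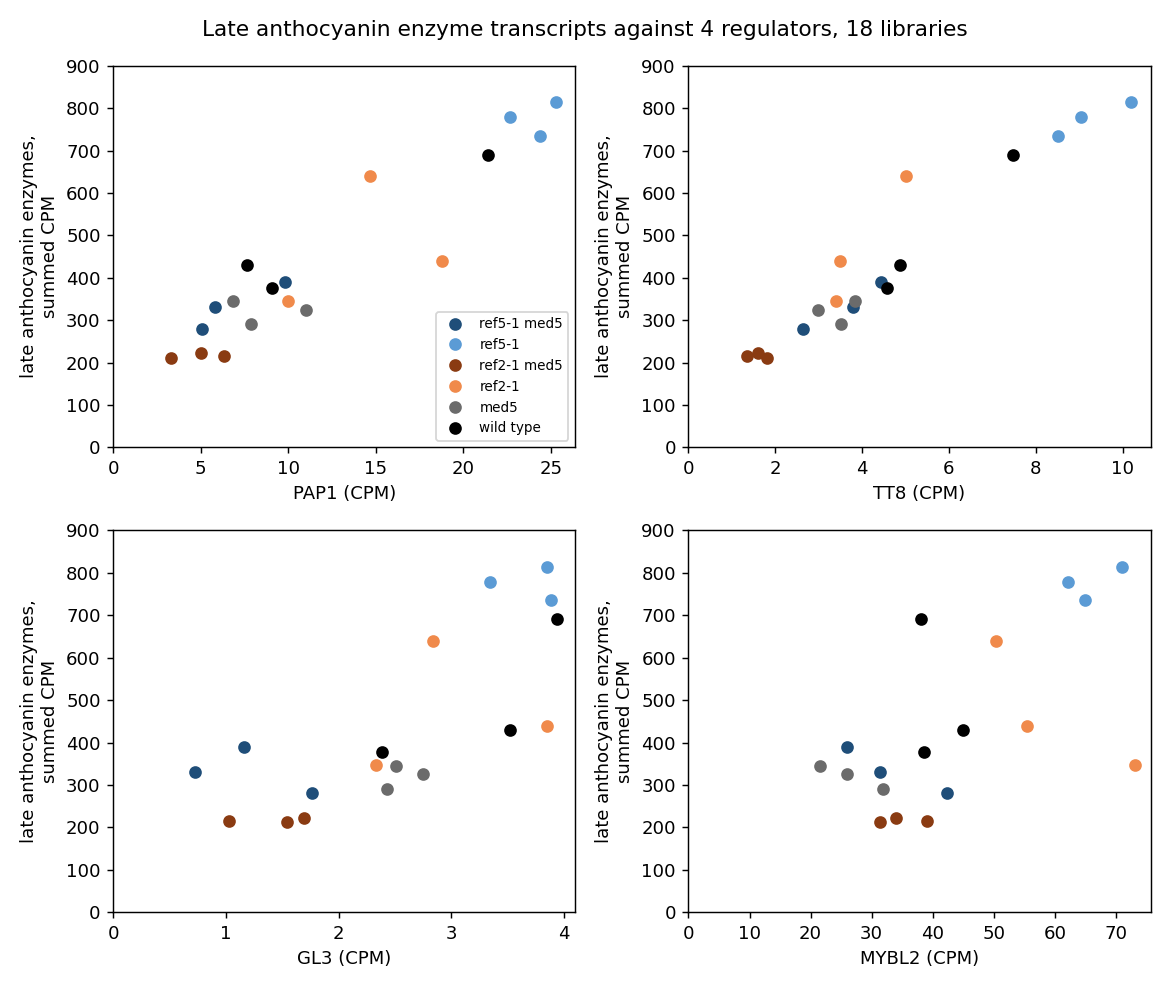
Summed CPM of the 10 late anthocyanin enzymes (vertical axis) against the CPM of single regulators, TT8 and PAP1 among them (horizontal axes), in 18 libraries, coloured by genotype. The enzymes rise with TT8 (r = 0.96) and PAP1 (r = 0.93).

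The early flavonoid and flavonol enzymes, some of which MYB12 and MYB111 control, were called in part. Of 11 tested, 4 fell in ref5-1 med5 against ref5-1, where 4.71% of all tested genes were called lower, and 2 in ref2-1 med5 against ref2-1, where 4.26% were. In ref5-1 against wild type 1 rose, where 5.12% of all tested genes were called higher, or 4 without wild type replicate 3. F3H, flavanone 3-hydroxylase, averaged 74.5 ± 18.3 CPM in ref5-1 med5 and 168 ± 31.8 CPM in ref5-1, with a log2 fold change of -1.18 ± 0.245 (adjusted p = 0.00898). F3'H, flavonoid 3'-hydroxylase, averaged 5.18 ± 1.07 CPM in ref2-1 med5 and 26.7 ± 14.4 CPM in ref2-1, with a log2 fold change of -2.37 ± 0.462 (adjusted p = 0.00782). FLS1, the flavonol synthase, was not called in either comparison. It averaged 63.3 ± 14.1 CPM in ref5-1 med5, against 74.3 ± 7.63 CPM in ref5-1. The count of 4 was 1 or 2 without any ref5-1 library or without ref5-1 med5 replicate 2 or 3, and the count of 2 was 1 without ref2-1 replicate 1 or any ref2-1 med5 library and 4 without ref2-1 replicate 2.

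MYB12 and MYB111 themselves were called in none of the 8 comparisons of pairs of genotypes. MYB12 ran from 1.00 CPM in a ref5-1 med5 library to 2.36 CPM in a ref2-1 library, and its mean was lowest in ref5-1 med5 (1.10 ± 0.100 CPM) and highest in ref2-1 (1.89 ± 0.479 CPM; SD, n = 3). Of the pairs of genotypes compared, ref5-1 med5 lay below ref5-1 in every MYB12 library. MYB111 ran from 2.77 CPM in a ref5-1 library to 6.73 CPM in a med5 library, and its means were between 3.66 ± 0.768 CPM in ref5-1 and 5.75 ± 1.4 CPM in med5 (SD, n = 3). Unadjusted p-values under 0.05 were found for neither gene in any of these comparisons or in the interactions.

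The trichome genes, which share GL3, EGL3 and TTG1 with the pigment pathway, were called in small numbers. Their summed CPM was 53.4 to 62.1 in ref5-1 med5 and 74.2 to 82.4 in ref5-1. It was 69.9 to 70.7 in med5 and 80.8 to 88.2 in wild type. The sums of ref2-1 med5 (55.8 to 63.4) and ref2-1 (61.4 to 64.6) overlapped, and both lay below wild type. Of 13 tested, 2 fell in ref5-1 med5 against ref5-1, TTG2 and MYC1, where 4.71% of all tested genes were called lower, and 1 fell in ref2-1 med5 against ref2-1, TTG2, where 4.26% were, a share near that over all genes. TTG2, a WRKY factor that acts downstream of the complex in trichomes and seed coat, averaged 5.26 ± 0.269 CPM in ref5-1 med5 and 10.7 ± 0.638 CPM in ref5-1 (SD, n = 3), a log2 fold change of -1.03 ± 0.151 (adjusted p = 0.000395). It averaged 4.03 ± 0.235 CPM in ref2-1 med5 and 7.11 ± 1.27 CPM in ref2-1, a log2 fold change of -0.81 ± 0.157 (adjusted p = 0.00350). GL1, the MYB partner of GL3 in trichomes, fell in ref2-1 against wild type, with 2.17 ± 0.252 CPM in ref2-1 and 3.28 ± 0.673 CPM in wild type (adjusted p = 0.0197). ETC3 and MYC1 also fell there, 3 of 13 in all, where 11.2% of all tested genes were called lower. In ref2-1 med5 against med5, where GL3 fell, 3 of 13 fell, where 7.52% of all tested genes were called lower. That count was 1 without med5 replicate 1 or ref2-1 med5 replicate 3. In ref5-1 med5 against med5, where GL3 also fell, 0 of 13 were called, where 4.20% were called lower. In ref5-1 against ref2-1, 2 of 13 were higher in ref5-1, where 10.4% of all tested genes were. The count of 2 in the ref5-1 background was 1 without ref5-1 med5 replicate 2, and that of 1 in the ref2-1 background was 2 without ref2-1 replicate 1.

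The list of 20 other regulators of the pathway mixes genes that promote and genes that lower anthocyanin synthesis. In ref2-1 med5 against ref2-1, 5 rose and 3 fell, where 4.65% of all tested genes were called higher and 4.26% lower. In ref5-1 med5 against ref5-1, 4 rose and 1 fell, where 6.09% were called higher and 4.71% lower. In both, HAT1 and ANAC032, known as negative regulators of anthocyanin genes, rose, as did BBX21, a light signalling factor that promotes them, whereas BBX22, also a promoting factor, fell. BBX21 averaged 28.8 ± 2.19 CPM in ref5-1 med5 and 23.5 ± 2.44 CPM in ref5-1, and 30.5 ± 1.5 CPM in ref2-1 med5 and 24.0 ± 2.37 CPM in ref2-1 (SD, n = 3). ANAC032 gave 1.29 ± 0.180 in ref2-1 med5 against ref2-1 (adjusted p = 0.000262) and 0.79 ± 0.177 in ref5-1 med5 against ref5-1 (adjusted p = 0.00955). HAT1 gave 0.84 ± 0.144 and 0.75 ± 0.143 in the same comparisons. BBX22 averaged 14.4 ± 1.60 CPM in ref5-1 med5 and 37.5 ± 4.06 CPM in ref5-1, and 20.3 ± 0.0597 CPM in ref2-1 med5 and 53.7 ± 6.73 CPM in ref2-1 (SD, n = 3). ANAC032 also rose in ref5-1 against wild type, where TT8 rose (0.93 ± 0.189, adjusted p = 0.00468). It was 1 of 4 of the list called higher there, where 5.12% of all tested genes were called higher. The 1 called lower, where 3.60% were, was lost without wild type replicate 2 or ref5-1 replicates 1 or 3. BBX22 averaged 37.5 ± 4.06 CPM in ref5-1 and 18.1 ± 1.62 CPM in wild type (SD, n = 3). In ref2-1 against wild type 6 rose and 1 fell, where 13.5% were called higher and 11.2% lower. The number called lower in ref2-1 med5 against ref2-1 was 1 without any one of the 6 libraries, and in ref5-1 med5 against ref5-1 it was 2 or 3 without any library but ref5-1 med5 replicate 3. The number called higher in ref2-1 med5 against ref2-1 was 3 without ref2-1 replicate 3 or ref2-1 med5 replicates 1 or 2.

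Markers of flower tissue were called in several of the comparisons in which regulators were called. None of the 5 flower markers was at 0 in all libraries of a genotype. They summed to 7.73 to 9.87 CPM in ref2-1 med5, against 2.96 to 3.26 CPM in ref2-1. There 4 of 5 rose, where 4.65% of all tested genes were called higher. The markers summed to 3.22 to 4.62 CPM in ref5-1 med5, against 1.81 to 3.94 CPM in ref5-1. There 1 of 5 rose, SEP3, where 6.09% of all tested genes were called higher. That call was lost in edgeR without 5 of the 6 libraries, all but ref5-1 replicate 2, and DESeq2 did not make it. In ref5-1 against wild type, where TT8 and MYBL2 rose, they summed to 1.81 to 3.94 CPM in ref5-1, against 4.17 to 5.82 CPM in wild type. AG (-1.71 ± 0.410) and SEP3 (-1.28 ± 0.354) fell, 2 of 5, where 3.60% of all tested genes were called lower. Leaving out wild type replicate 2 or replicate 1 of ref5-1 took that count of 2 to 0, and leaving out wild type replicate 1 or replicate 3 of ref5-1 took it to 1. In ref2-1 against wild type they summed to 2.96 to 3.26 CPM in ref2-1, against 4.17 to 5.82 CPM in wild type. There 1 of 5 fell, where 11.2% of all tested genes were called lower, and 2 fell without wild type replicate 3. In ref5-1 med5 against med5 they summed to 3.22 to 4.62 CPM in ref5-1 med5, against 6.54 to 11.9 CPM in med5. There 3 of 5 fell, where 4.20% of all tested genes were called lower. Against the same med5 libraries, they summed to 7.73 to 9.87 CPM in ref2-1 med5, and 1 of 5 fell, where 7.52% of all tested genes were called lower. That call was lost without any one library but med5 replicate 2. In med5 against wild type the flower markers summed to 6.54 to 11.9 CPM in med5, against 4.17 to 5.82 CPM in wild type. There edgeR and DESeq2 called 0 of 5, where edgeR called 0.779% of all tested genes in either direction. All 5 had an unadjusted p under 0.05 in edgeR in the higher direction. The part of flower tissue in the results for the regulators was not tested. The green leaf markers summed to 35836 to 38520 CPM in ref2-1 med5, against 35492 to 37078 CPM in ref2-1.

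The genes whose log2 CPM was most like that of each member over the 18 libraries were found among all tested genes by Pearson r. For PAP1 they were UF3GT (UGT79B1, a late enzyme, r = 0.95) and APC1 (r = 0.94). For TT8 they were BGLU1 and LDOX, the anthocyanidin synthase, both with r = 0.96. For MYBL2 they were AT3G59940 (r = 0.94) and Toc90 (r = 0.92), for EGL3 AT4G38650 (r = 0.94) and NAKR3 (r = 0.92), and for GL3 AT4G33110 and AT2G26110 (both 0.89). PAP2 was most like AT3G46930 (r = 0.92) and the immune receptor gene EFR (r = 0.90). TTG1 was most like NAC017 (r = 0.88) and AT4G08510 (0.87). MYB12 and MYB111 had no gene above 0.82. Those for MYB12 were APD2 and AT3G06270, and those for MYB111 were AT1G14600 and AT1G25375. The libraries share genotypes, so a high r describes a like order of genotypes.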

How the data were processed

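The authors deposited raw counts, 1 column per library and 1 line per gene. Per the submitters' processing notes, the tools were TopHat2 2.1.0, HTSeq 0.6.1, Trimmomatic and edgeR, and the build was TAIR10; the strand setting of the counting is not given in the sources used here. Counts were scaled by TMM and fitted in edgeR 4.0.16 (R 4.3.3) with a robust quasi-likelihood model of all 18 libraries, 1 coefficient per genotype, after filterByExpr. P-values were adjusted by Benjamini-Hochberg over 19897 genes. SEs come from the F statistic, CPM from TMM-scaled library sizes, and log2 CPM used a prior count of 2. Reads with several alignments (3.71% to 25.3% of a library, highest in ref5-1 med5 replicate 1), with no feature (0.775% to 1.44%) and ambiguous reads (0.648% to 1.37%) stayed out. At the lowest depth 1 CPM is about 19.6 counts. Labels describe pools of rosettes, and the spread behind each p is that between pools.

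Promoters, exons and coordinates are RefSeq's, from the TAIR10.1 genome, matched by locus identifier; 32835 of 33602 identifiers were in its gene table, and symbols are its own or common synonyms. The members and gene lists were chosen with earlier results of these data known. The genes named were the 9 members in every comparison, up to 4 called genes with the smallest adjusted p in a list, the targeted genes, and the 2 genes most like each member; list genes given beside them (DFR, FLS1, GL1, MYB113, MYB114 and others) were chosen after their values were seen. Comparisons were 8 pairs of genotypes and 2 interactions. Alternatives were median-ratio size factors, DESeq2 1.42.0, no filter, a replicate block, a fit to the compared genotypes alone and each library left out, also applied to the list counts after seeing the data. The scripts were tested on simulated data. The main fit did not pair libraries by replicate number. Correlations of same-numbered deviations ran from -0.19 to 0.35. The highest were between replicates 3, with 0.35 in ref5-1 med5 against med5 and 0.34 in ref2-1 against wild type. Replicates 3 gave -0.03 in ref5-1 med5 against ref5-1 and in ref5-1 against ref2-1. Whether same-numbered libraries shared a factor was not tested. Figures used matplotlib 3.10.9.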

Additional observations from a re-analysis of the deposited data

Results flagged for a closer look

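BBX22 (AT1G78600), a B-box factor of light signalling that promotes anthocyanin genes, was called in both interactions, that is, the difference between plants without and with MED5 was not the same in a glucosinolate mutant as in wild type. The interaction was -1.27 ± 0.150 on the log2 scale for ref5-1 (adjusted p = 0.000336) and -1.29 ± 0.148 for ref2-1 (adjusted p = 0.000269), in edgeR's quasi-likelihood test with Benjamini-Hochberg adjustment. BBX22 averaged 14.4 ± 1.60 CPM in ref5-1 med5 and 37.5 ± 4.06 CPM in ref5-1, 20.3 ± 0.0597 CPM in ref2-1 med5 and 53.7 ± 6.73 CPM in ref2-1, and 16.7 ± 0.968 CPM in med5 and 18.1 ± 1.62 CPM in wild type (SD, n = 3). The same med5 and wild type libraries enter both interactions. No other gene of the lists was called in either by edgeR with all libraries. For the interaction of ref2-1 with med5, DESeq2 called 3 of the 20 other flavonoid regulators higher, and edgeR called 1 higher without wild type replicate 2 or 3 or med5 replicate 2, as it did for ref5-1 without wild type replicate 3.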

How the results depend on the processing

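Numbers of called members and genes changed with the fit more than directions did. In a fit to the compared genotypes alone, 1 member and 1057 genes were called in ref5-1 against wild type (2 and 1735 in the fit to all libraries), 1166 genes in ref5-1 med5 against ref5-1 (2149), 0 members in ref5-1 med5 against med5 (1), 2816 genes in ref5-1 against ref2-1 (4258) and 10 in the interaction of ref5-1 with med5 (18). DESeq2 called 1 member and 494 genes in med5 against wild type (0 and 155), 125 genes in the interaction of ref5-1 with med5 and 592 in that of ref2-1 (149). The replicate block gave 297 genes in the interaction of ref2-1 and kept every other count within 1.5 times. The cause of these differences was not tested. The smaller fits also held fewer libraries.

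With single libraries left out, called members numbered 0 to 2 and genes 716 to 1695 in ref5-1 against wild type, 2 to 5 and 3585 to 4551 in ref2-1 against wild type, 0 to 0 and 52 to 184 in med5 against wild type, 3 to 5 and 897 to 2216 in ref5-1 med5 against ref5-1, 2 to 4 and 762 to 1468 in ref2-1 med5 against ref2-1, 0 to 1 and 1078 to 2079 in ref5-1 med5 against med5, 1 to 1 and 1578 to 2579 in ref2-1 med5 against med5, and 3 to 4 and 3072 to 4030 in ref5-1 against ref2-1. The interactions kept 0 members, with 10 to 33 genes for ref5-1 and 38 to 475 for ref2-1.

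Of 1097 alternative log2 fold changes of members, 1001 kept their direction and side of the threshold, 41 lost the call, 6 gained one and 49 changed sign. No called value changed sign, and the 49 all arose with a library left out. Those ranges were, in ref5-1 against wild type, -0.27 to 0.77 for PAP2, -0.02 to 0.32 for GL3, -0.01 to 0.07 for TTG1 and -0.16 to 0.33 for MYB12. In ref2-1 against wild type they were -0.08 to 0.77 for PAP1, -0.36 to 0.01 for GL3 and -0.32 to 0.11 for MYB111. In med5 against wild type they were -0.83 to 0.03 for PAP1 and -0.20 to 0.36 for MYB12. In ref2-1 med5 against ref2-1 they were -0.12 to 0.14 for EGL3 and -0.09 to 0.34 for MYB111. In ref5-1 med5 against med5 they were -0.26 to 0.66 for PAP2, -0.12 to 0.25 for TT8, -0.17 to 0.03 for EGL3 and -0.00 to 0.07 for TTG1, and in ref2-1 med5 against med5 -0.24 to 0.16 for MYB12. The interaction of ref5-1 with med5 ran from -0.68 to 0.64 for PAP2, -0.04 to 0.05 for TTG1 and -0.18 to 0.23 for MYB111, and that of ref2-1 from -0.29 to 0.02 for MYBL2 and -0.41 to 0.09 for MYB111. PAP2, the member with the lowest CPM, had SEs of 0.415 to 0.536 in the comparisons of pairs.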
